A study of Laetiporus sulphureus with 6 samples.

Results

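The genes described here were the isolated strong falls of the brown-rot fungus *Laetiporus sulphureus* ATCC 52600. They were transcripts that dropped steeply when mycelium was moved to sugarcane bagasse and that lay outside the study's enzyme list. Their neighbours in the gene numbering, where in the table, did not drop past a set limit, though some dropped mildly. There were 59 such genes among the 10015 in the count table. Levels were counts per 1000000 counts of the library (CPM), and the difference d was the log2 ratio of the mean BIN level to the mean T0 level after 1 CPM was added to each. A gene was included when d was -2.5 or lower, when every BIN library lay below every T0 library, when it was absent from the enzyme list, and when neither adjacent gene number had a d of -1 or lower. The genes were chosen by these CPM values, so their levels and differences are a description and carry no test.

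RNA was sequenced from 3 libraries of each of 2 groups, all from the same strain and from mycelium grown in shaken liquid culture at 30 °C and 180 rpm. T0 was the pre-inoculum, started from 15 agar discs of 8 mm diameter and kept for 7 days in 100 mL of liquid medium. BIN was mycelium grown in the same way, washed, and kept for 24 h with 1 g of in natura (untreated) bagasse in 100 mL of a mineral medium of ammonium, phosphate, potassium and magnesium salts. Contact with bagasse, the wash, the change of medium and the added 24 h of culture came together and cannot be told apart. In bulk RNA neither can fewer active cells and less transcript per cell.

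Brown-rot fungi feed on the polysaccharides of wood and leave a brown residue rich in lignin, and they combine secreted hydrolases with redox chemistry. In fungi, genes that serve one pathway may lie side by side and change together. A gene whose numbered neighbours do not fall past the limit stands outside such a run as the rule counts it. For most of the genes described here no function is given in the lists used, so they are known by their gene numbers.

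Of the 10015 genes, 189 had a d of -2.5 or lower, and in all 189 every BIN library lay below every T0 library. The enzyme list of carbohydrate-active enzymes, redox genes, cytochrome P450s and transporters held 32 of them, which left 157. A falling neighbour removed 98 of these, and 59 remained. For 11 of the 59 one adjacent number was not in the table and could not be judged. The table holds no gene under 1.01 CPM in any library, so a gene that fell below that level in BIN would be absent. Why these 11 numbers are absent was not tested. All 59 were called lower in BIN by edgeR, with log2 fold changes of -1 or below and adjusted p-values up to 0.05, where 14.5% of all genes were. The groups did not overlap in CPM in any of the 59, beside 32% of all genes with every BIN library below every T0 library. In length-scaled transcript levels (TPM) the groups did not overlap in any of the 59 either, beside 21.1% of all genes. The rule itself used this contrast, so these counts add nothing to the choice.

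The falls ranged in d from -5.45 to -2.51, with a median of -2.77, while the median over all genes was 0.12. Mean CPM was between 5.77 and 53.9 times lower in BIN, with a median of 7.42 times. The fall reached a d of -3 in 20 genes, and the upper quartile of d was -2.60, so the group was crowded at its edge. The lowest T0 library exceeded the highest BIN library by 2.12 to 44.1 times, and by at least 3 times in 55 genes. The plot of levels by library shows a wide gap for most genes and a narrow one for a few with scattered T0 values.

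**Figure D1:**
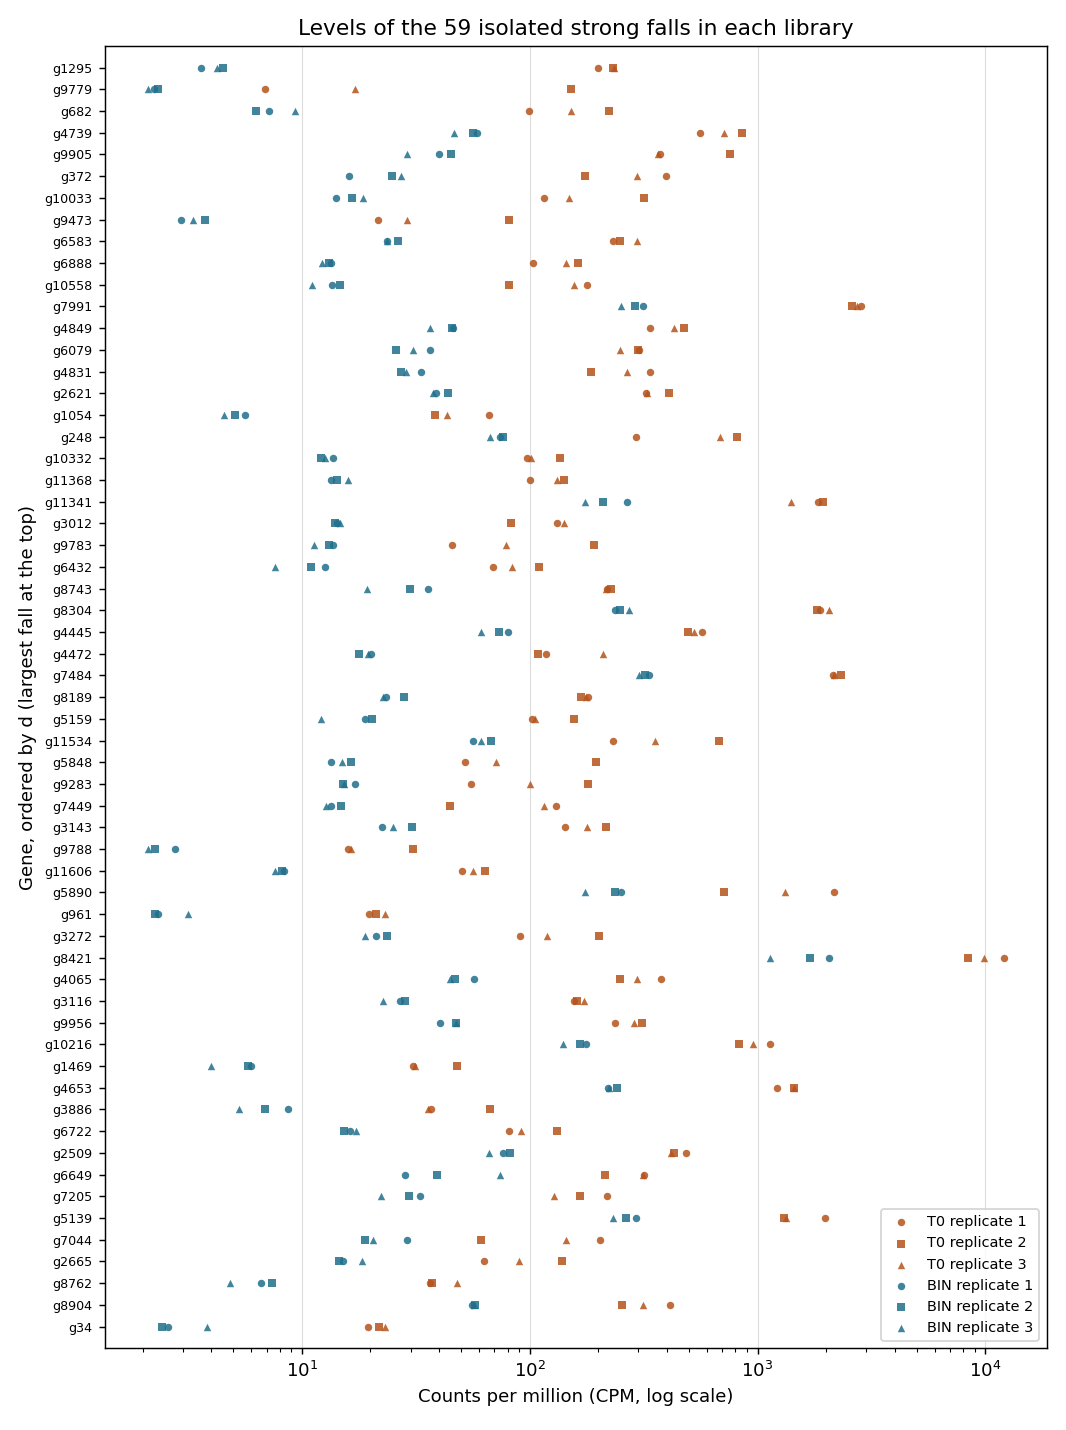
Level in CPM (log axis) of each of the 59 genes in the 3 T0 and 3 BIN libraries, ordered by d with the deepest fall at the top. Every BIN point lies to the left of every T0 point of its gene, as the rule requires, and the distance between the groups runs from 2.12 times in g7044 to 44.1 times in g1295.

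The deepest fall of all 10015 genes was g1295, a gene of 444 bases that is in none of the study's lists. Its level was 199, 233 and 235 CPM in T0 replicates 1 to 3 and 3.63, 4.52 and 4.23 CPM in the BIN libraries, a mean 53.9 times lower. Both groups were tight, and only 42 to 56 reads were counted in each BIN library. The same gene was among the more abundant transcripts in T0, at rank 402 of all genes by TPM, and stood at rank 8443 in BIN.

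Next came g9779 and g682, both with a d of -4.20, which differed in how evenly the T0 libraries carried the fall. In g9779 the T0 libraries held 6.92, 152 and 17.2 CPM and the BIN libraries 2.25, 2.35 and 2.12 CPM. One T0 library, replicate 2, therefore set most of its mean, and without that library d was -2.01, short of the threshold. g682 held 99.3, 222 and 151 CPM in T0 and 7.17, 6.28 and 9.37 CPM in BIN. Its groups lay far apart in every library, and d was -3.87 without T0 replicate 2.

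The next 3 falls were of genes with higher levels in T0. g4739 held 560, 859 and 715 CPM in T0 and 58.8, 56.2 and 46.6 CPM in BIN (d -3.70). g9905 held 374, 753 and 366 CPM in T0 and 40.2, 45.1 and 29.1 CPM in BIN (d -3.67). g372 held 398, 174 and 296 CPM in T0 and 16.1, 24.96 and 27.3 CPM in BIN (d -3.61). T0 replicate 2 was the highest library in the first pair and the lowest in g372 among these genes.

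The 10 deepest falls ended with g10033, g9473, g6583 and g6888, at a d of -3.48 to -3.31. g10033 held 116, 316 and 149 CPM in T0 and 14.2, 16.7 and 18.5 CPM in BIN. g6583 was more even, with 233, 247.95 and 295 CPM in T0 and 23.6, 26.4 and 23.7 CPM in BIN. g6888 is the longest gene of the group and held 104, 164 and 144 CPM in T0 and 13.5, 13.2 and 12.2 CPM in BIN. The table holds just 1 other gene of its length of 7359 bases, g6873, which had a d of -3.25 and a falling neighbour. The way reads on similar copies were assigned is not given in the sources used here, and a split of reads between the pair was not tested.

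Together the 59 genes took 3.63%, 3.27% and 3.30% of the counts in T0 and 0.540%, 0.493% and 0.406% in BIN. The means were 3.40% ± 0.199 (SD, n = 3) and 0.480% ± 0.0675 (SD, n = 3). Much of both shares was a single gene, g8421, which made 29.7% of the group's CPM in T0 and 34.01% in BIN. Without g8421 the other 58 genes took 2.39% ± 0.0627 in T0 and 0.316% ± 0.0209 in BIN (SD, n = 3). The 10 most abundant genes of each condition made 72.6% of the group's CPM in T0 and 76.2% in BIN. The 98 strong falls with a falling neighbour took 7.03% in T0 and 0.798% in BIN, and the 32 of the enzyme list took 3.54% and 0.374%, so in T0 the 59 isolated genes took about the share of the 32 enzyme genes.

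g8421 was the most abundant of the 59 in both conditions. It held 12032, 8427 and 9877 CPM in T0 and 2067, 1691 and 1136 CPM in BIN. Its fall (d -2.63) was near the edge of the rule and was -2.49 without T0 replicate 1, yet the lowest T0 library was 4.08 times the highest BIN library. In TPM its mean level went from 7921 in T0, rank 7 of all genes, to 1576 in BIN, rank 64. It was the only 1 of the 59 among the 100 highest genes by TPM in BIN.

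Several of the other highly expressed genes were short. g7991, of 315 bases, held 2832, 2609 and 2727 CPM in T0 and 313, 291 and 252 CPM in BIN (d -3.25). Its level was close to even within each group, and by mean TPM it went from rank 9 to rank 129. g5139, of 312 bases, held 1983, 1311 and 1329 CPM in T0 and 294, 265 and 233 CPM in BIN (d -2.54). g8304, of 516 bases, held 1882, 1821 and 2061 CPM in T0 and 236, 250 and 272 CPM in BIN (d -2.92). Both were among the 24 highest genes by TPM in T0 and stood at ranks 138 and 290 in BIN.

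g5890 and g10216, of 483 and 273 bases, completed the 6 genes of the group that were among the 100 highest by TPM in T0. g5890 held 2170, 713 and 1316 CPM in T0 and 251, 236 and 175 CPM in BIN (d -2.66). Its T0 libraries were spread by more than its BIN libraries, and d was -2.20 without T0 replicate 1. g10216 held 1139, 829 and 959 CPM in T0 and 177, 166 and 139 CPM in BIN (d -2.59), with modest scatter in both groups.

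Of the abundant genes 2 were long, g11341 with 2325 bases and g4653 with 2421 bases. g11341 held 1842, 1928 and 1406 CPM in T0 and 267, 211 and 175 CPM in BIN (d -2.98). g4653 held 1215, 1451 and 1444 CPM in T0 and 221, 242 and 223 CPM in BIN (d -2.58). Per length both were well below the short genes, with mean T0 levels of 604 and 460 TPM beside 7007 TPM for g7991.

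Abundance in T0 spanned a wide range over the group. The mean T0 level was 21.1 to 10112 CPM with a median of 175, and the mean BIN level was 2.24 to 1631 CPM with a median of 22.9. In T0 8 genes had 1000 CPM or more, 46 had 100 or more and 13 had less than 100. In BIN 9 genes still had 100 CPM or more and 12 had less than 10. Per length, the median T0 level of the group was 168 TPM against 23.2 TPM over all genes, and the median BIN level was 19.0 TPM against 31.9 TPM. A fall of this depth from a low T0 level would run into the lowest values of the table, which holds no gene under 1.01 CPM in any library, so the high T0 median follows in part from the rule.

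**Figure D2:**
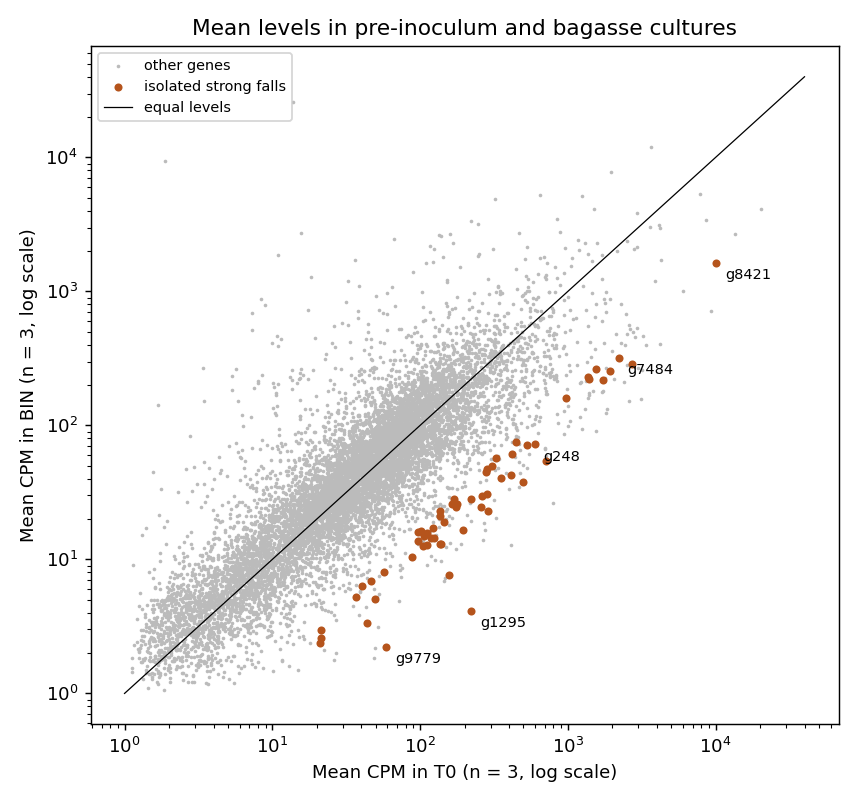
Mean CPM in T0 (x axis) against mean CPM in BIN (y axis), both on log axes, for the 59 isolated strong falls and the other genes of the table, with a line of equal levels. The 59 genes lie below the line over the whole range of T0 levels, from 21.1 to 10112 CPM, with g1295 and g9779 farthest from it and g8421 at the upper end.

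Functions were available for 4 of the 59, through the study's list of secreted proteins. 2 of the 4 belong to phosphatase families. g7484, in the histidine phosphatase superfamily (PF00328), whose members remove phosphate from small esters and proteins, held 2140, 2326 and 2161 CPM in T0 and 334, 321 and 301 CPM in BIN (d -2.79). Both groups were narrow, and in TPM the mean went from 1084 to 192. g2621, a calcineurin-like phosphoesterase (PF00149), a metal-dependent family that cleaves phosphate esters, held 323, 410 and 327 CPM in T0 and 38.9, 44.0 and 37.8 CPM in BIN (d -3.10). Its groups were far apart, with the lowest T0 library 7.35 times the highest BIN library.

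The other 2 had lower T0 levels than the phosphatase genes, and their T0 libraries were scattered. g9473, an oxidoreductase, a broad class of enzymes that transfer electrons, held 21.5, 80.9 and 28.8 CPM in T0 and 2.94, 3.77 and 3.32 CPM in BIN (d -3.36). The paper reports the secreted protein of g9473 as upregulated, relative to glucose, on Avicel, steam-exploded bagasse and *Eucalyptus*. Those were longer static cultures, so time, substrate, reference and measure all differ from the RNA levels here. g9283, a cupin, a barrel-shaped fold found in many kinds of enzyme and storage protein, held 55.0, 179 and 100 CPM in T0 and 17.1, 15.2 and 15.3 CPM in BIN (d -2.74). T0 replicate 2 was the highest library in both. Without it d was -2.59 in g9473, still past the threshold, and -2.22 in g9283.

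The list of secreted proteins came from supernatants of longer static cultures on glucose, Avicel and steam-exploded substrates. It therefore differs from the RNA samples in time, substrate and measure, and it also holds entries such as actin and enolase. The list held 65 genes outside the enzyme list, all of them in the table. edgeR called 24 of them lower and 9 higher in BIN, against 14.5% and 11.3% of all genes, and 32 were not called. Their median d was -0.34, against 0.12 over all genes. A d of -2.5 or lower was found for 10, and the 6 of these that are not among the 59 had an adjacent gene with a d of -1 or lower. The deepest of the 10, the amidases g11130 (d -4.13) and g11131 (d -3.98), were not called by edgeR. They held 3.88, 130 and 12.2 CPM and 26.3, 741 and 63.9 CPM in T0 replicates 1 to 3. A further PF00328 entry of that list, g2310, named as a phosphoglycerate mutase, was also called lower with a d of -2.40, above the threshold, with 345, 568 and 425 CPM in T0 and 88.3, 88.3 and 75.1 CPM in BIN. The entry named as a phosphatase, g4844, had a d of -0.43 and was not called.

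Coding length was not used by the rule. It was read from the ratio of counts to TPM, which came out as whole numbers of bases, within 0.001, for all 10015 genes. The 59 genes were 246 to 7359 bases long, with a median of 909 and quartiles of 621 and 1550, against a median of 1107 over all genes. Of the 59, 37 (62.7%) were shorter than the median gene. Strong falls with a falling neighbour were shorter still, with a median of 847.5 bases and 69.4% under the median gene. The strong falls of the enzyme list were longer, with a median of 1537.5 bases and 15.6% under it.

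By quartile of length over all genes, from the shortest up, the 59 genes numbered 17, 20, 12 and 10. Length and d moved together across the table: the median d in these quartiles was -0.24, -0.03, 0.16 and 0.53. When this trend was removed from each library before the rule was applied, 51 genes were chosen, 44 of them in common, and their median length was 1317 bases. These 51 are a newly chosen set, and the step itself raises d in short genes and lowers it in long ones. For example, d went from -2.60 to -2.34 in g9956 of 273 bases and from -3.31 to -3.72 in g6888 of 7359 bases. The longer median therefore does not show whether the 59 are short beyond the general trend. The cause of the trend was not tested.

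The shortest genes were g4472, g6079 and then g9956 with g10216, at 246, 249 and 273 bases. g4472 held 117, 109 and 209 CPM in T0 and 20.2, 17.8 and 19.5 CPM in BIN (d -2.85). g6079 held 302, 299 and 249 CPM in T0 and 36.4, 25.9 and 30.7 CPM in BIN (d -3.15). g9956 held 236, 312 and 287 CPM in T0 and 40.2, 47.5 and 47.6 CPM in BIN (d -2.60). Even these small genes were counted by at least 213 reads in every library, and none overlapped between groups, as the rule requires.

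The longest after g6888 were g3143 and g2665, at 3465 and 3414 bases. g3143 held 143, 215 and 178 CPM in T0 and 22.5, 30.5 and 25.01 CPM in BIN (d -2.73). g2665 held 62.9, 139 and 89.4 CPM in T0 and 15.2, 14.6 and 18.4 CPM in BIN (d -2.53). Per length all 3 were modest, at mean T0 levels of 15.2, 42.0 and 23.3 TPM for g6888, g3143 and g2665. When d was taken from TPM, where the median over all genes was 0.40 rather than 0.12, the 59 genes ran from -5.31 to -2.04, and 28 stayed at -2.5 or lower.

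**Figure D3:**
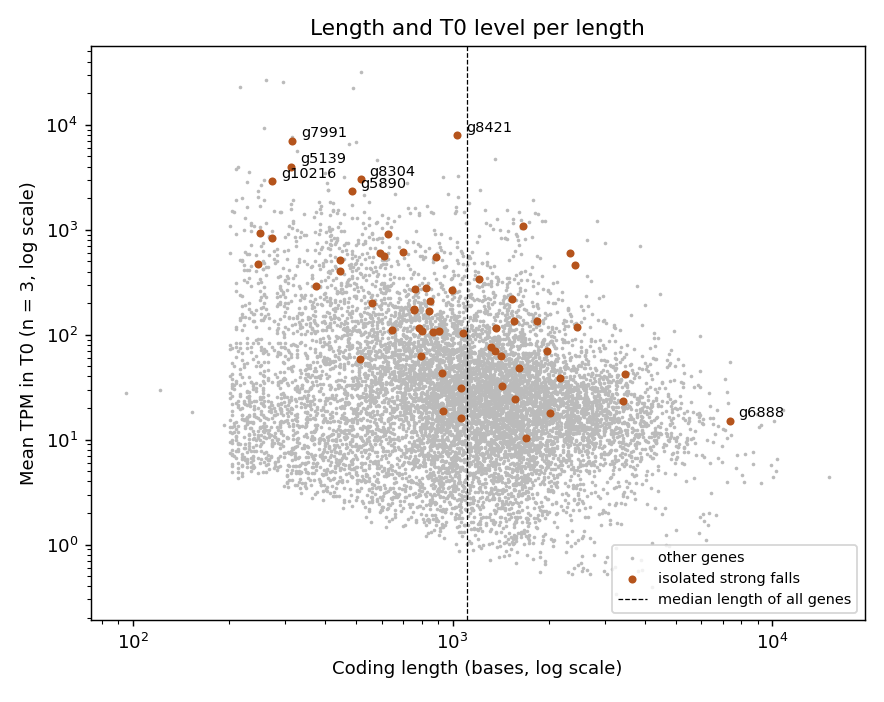
Coding length in bases (x axis, log) against mean T0 level in TPM (y axis, log) for the 59 genes and the other genes, with the median length of all genes as a dashed line. Of the 59 genes 37 lie left of the line, and the highest TPM values belong to the short genes g7991 and g5139 and to g8421 of 1032 bases.

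The spread between libraries was not itself set by the rule, apart from the condition that the groups not overlap. It was not independent of the rule either, because d uses the T0 mean and a single high T0 library lowers d. A wide T0 spread can thus bring a gene into the group, and the T0 spreads below may follow in part from the choice. The coefficient of variation over the T0 libraries had a median of 24.0% in the 59 genes, against 11.1% over all genes, 14.8% in the strong falls with a falling neighbour and 19.8% in those of the enzyme list. Over the BIN libraries it was 11.6%, against 6.76% over all genes, 12.7% and 11.9%. T0 varied more than BIN in 41 of the 59, while it did so in 70.6% of all genes, so the direction was that of the table as a whole. A T0 coefficient of variation of 50% or more was found in 9 of the 59 and in 1.09% of all genes, and one under 10% in 12 of the 59 and in 43.8% of all genes.

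T0 replicate 2 was often the library that stood apart. It was at least 1.5 times above the mean of the other T0 libraries in 17 of the 59 (28.8%), against 5.73% of all genes, 24.5% of the strong falls with a falling neighbour and 21.9% of those of the enzyme list. In 8 genes (13.6%) it was at least 1.5 times below, against 2.91% of all genes, 6.12% and 12.5%, and 34 lay between. A high replicate 2 was thus found in strong falls of all 3 kinds. All 3 kinds were chosen by a d whose T0 mean includes replicate 2, so a high replicate 2 itself favours the choice. How much of the excess over all genes comes from this was not tested. T0 replicate 2 also stood somewhat apart over all genes: the correlation of log2 CPM was 0.979 to 0.992 between T0 libraries and 0.993 to 0.995 between BIN libraries. Without T0 replicate 2 the rule gave 54 genes, of which 46 were among the 59, so 13 of the 59 were lost. The loss was not particular to that library: without T0 replicate 1 the rule also gave 54 genes, with 45 shared and 14 lost. Replicate 2 was the highest T0 library in 52.5% of the 59, against 54.0% of all genes.

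The 3 widest T0 spreads were those of g9779, g9473 and g5848, and in all of them replicate 2 was the high library. g5848 held 52.1, 196 and 71.0 CPM in T0 and 13.4, 16.5 and 15.0 CPM in BIN (d -2.749). Without T0 replicate 2 its d was -1.97, short of the threshold. The opposite case was g7044, with 204, 61.4 and 145 CPM in T0 and 29.0, 19.0 and 20.6 CPM in BIN (d -2.53). Here replicate 2 was the low library, which left the narrowest gap of the group, 2.12 times.

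At the steady end stood g8743, g8189 and g7991, with T0 coefficients of variation of 2.88%, 3.57% and 4.09%. g8743 held 218, 228 and 216 CPM in T0 and 35.7, 29.9 and 19.3 CPM in BIN (d -2.92). g8189 held 180, 168 and 177 CPM in T0 and 23.5, 28.0 and 22.7 CPM in BIN (d -2.77). A steady T0 level did not go with a steady BIN level in g8743, whose BIN spread of 29.4% was the second widest of the group.

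In BIN the widest spread was that of g6649, with 28.2, 39.0 and 74.3 CPM, below its T0 values of 319, 213 and 314 CPM (d -2.55). The tightest BIN levels were those of g8904, g3012 and g11606. g8904 held 414, 255 and 315 CPM in T0 and 56.0, 57.6 and 56.9 CPM in BIN (d -2.51), a BIN coefficient of variation of 1.47%. g3012 held 132, 82.4 and 141 CPM in T0 and 14.3, 14.0 and 14.7 CPM in BIN (d -2.96). g11606 held 50.5, 63.4 and 56.2 CPM in T0 and 8.38, 8.21 and 7.63 CPM in BIN (d -2.67). For g8904 and g3012 the T0 libraries were scattered while the BIN libraries nearly coincided. Over the group the BIN libraries lay within 1.5 times of each other in 47 genes and the T0 libraries in 25, against 94.8% and 83.6% of all genes.

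**Figure D4:**
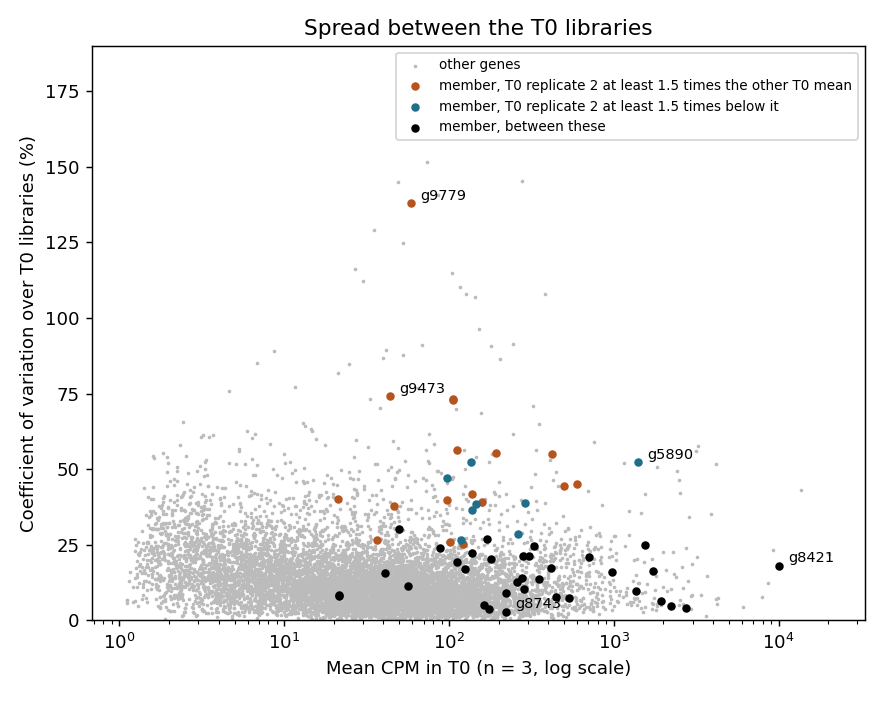
Mean T0 level in CPM (x axis, log) against the coefficient of variation over the 3 T0 libraries in percent (y axis) for the 59 genes and the other genes, with the 59 coloured by the level of T0 replicate 2 against the mean of the other T0 libraries. The 17 genes with a high replicate 2 and the 8 with a low one make up the upper part of the group, and g9779 stands at 138%.

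The neighbours of the 59 genes were limited from below by the rule, so only their upper side is informative. Of the 118 adjacent numbers 107 were in the table and 11 were not. Their d ran from -0.99 to 4.11 with a median of 0.21, and the median over all 8916 genes with a d above -1 was 0.23. A d of 1 or more was found in 16 neighbours (15.0%), and in 14.5% of genes with a d above -1. edgeR called 14 neighbours (13.1%) higher and 7 (6.54%) lower in BIN, against 12.7% and 4.18% of the genes with a d above -1, and 11.3% and 14.5% of all genes. Whether consecutive numbers are adjacent on a scaffold was not checked here.

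Both neighbours rose with a d of 1 or more in 3 of the 48 genes with both neighbours in the table. Taken singly, neighbours reached that d about as often as genes with a d above -1 did (15.0% and 14.5%). How often both neighbours rise beside other genes was not counted, so the 3 are described as single cases. g248, of 888 bases, held 294, 809 and 685 CPM in T0 and 73.8, 76.2 and 66.6 CPM in BIN (d -3.03). Its neighbours g247 and g249 are an endoglucanase of family GH5_9 and a glucanase of family GH55, families of hydrolases that cut glucans. g247 rose from 317, 369 and 324 CPM to 1136, 1039 and 1082 CPM (d 1.69), and g249 from 5.35, 6.26 and 4.83 CPM to 19.3, 18.9 and 15.3 CPM (d 1.54). The fall of g248 was therefore flanked on both sides by listed hydrolases called higher. g248 lies outside the naming rule stated with the methods and was chosen after its values had been seen, as were g961, g2310, g4831, g4844, g7449, g9781, g9783, g9788, g10332 and g11368.

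The other genes of this kind were g11368 and g34. g11368 held 101, 141 and 132 CPM in T0 and 13.4, 14.3 and 15.9 CPM in BIN (d -3.01), between g11367 (d 2.07) and g11369 (d 2.65). g34 held 19.6, 21.8 and 23.1 CPM in T0 and 2.59, 2.43 and 3.85 CPM in BIN (d -2.51), between g33 (d 1.07) and g35 (d 1.80). The groups did not overlap in the falling gene, as the rule requires, or in the neighbours, which were picked for a high d.

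The steepest contrasts were on one side. g961 held 19.8, 21.1 and 23.2 CPM in T0 and 2.33, 2.26 and 3.17 CPM in BIN (d -2.64), while g962 rose from 9.54, 12.02 and 9.46 CPM to 211, 184 and 190 CPM (d 4.11). Beside the phosphoesterase g2621, g2620 rose from 8.80, 5.06 and 5.09 CPM to 92.5, 97.6 and 109 CPM (d 3.78). Beside g8421, g8420 rose from 75.7, 23.0 and 38.3 CPM to 227, 328 and 229 CPM (d 2.49). g7450, next to g7449, had a d of 2.11 and g1296, next to g1295, one of 1.89. In each of these pairs one gene dropped and the adjacent number rose. The groups overlapped in neither, but the rule sets this for the falling gene. The neighbours were picked for a high d, so the lack of overlap adds nothing.

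Numbers of the enzyme list lay next to 10 of the 59. For g10033 that number, g10032, was not in the table, and the other 9 lay beside listed genes with values. Among these listed genes, the redox genes g10215 (d -0.79) and g8303 (d -0.41) and the peroxidase g9906 (d -0.13) were not called. Nor were the alcohol dehydrogenases g9787 (d -0.08) and g7206 (d 0.15) and the GT2 glycosyltransferase g4471 (d 0.28). Apart from these and from g247 and g249, there were the alcohol dehydrogenase g3144 beside g3143 (d -0.99) and the AA3_2 aryl alcohol oxidase g10333 beside g10332 (d -0.92). Both were called lower and stayed just above the limit, so g3143 and g10332 count as isolated by a narrow margin. The same held for g1295, whose neighbour g1294 had a d of -0.98, and for g4739, whose neighbours g4738 and g4740 had a d of -0.86 and -0.94. With TMM scaling g1295, g3143, g4739, g8904 and g10332 left the group because a neighbour passed the limit, and g1295 and g10332 also left it with the length trend removed. The deepest fall of the table was therefore isolated only under some forms of the rule. With a limit of -0.5 in place of -1, 46 of the 59 remained.

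**Figure D5:**
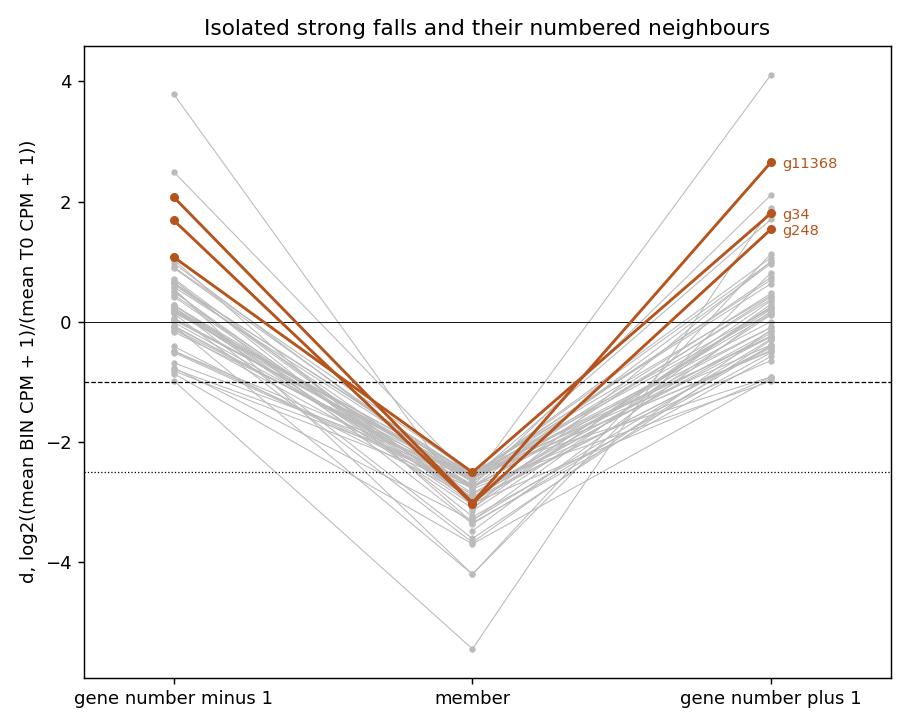
The difference d (y axis, log2) of each of the 59 genes in the centre and of the genes with the adjacent lower and higher number at either side, joined by lines, with dashed and dotted lines at the neighbour limit of -1 and the threshold of -2.5. Neighbours spread from -0.99 to 4.11, and the 3 genes with a d of 1 or more on both sides (g248, g11368 and g34) are drawn in colour.

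The 59 genes were scattered through the numbering, with a median distance of 153.5 numbers between one and the next. Within 10 numbers of each other there were only 3 pairs, all formed by g9779, g9783 and g9788. g9783 held 45.4, 192 and 78.7 CPM in T0 and 13.6, 13.2 and 11.3 CPM in BIN (d -2.96), and g9788 held 15.9, 30.9 and 16.5 CPM in T0 and 2.76, 2.26 and 2.12 CPM in BIN (d -2.71). T0 replicate 2 was the high library in all 3. Between them g9781 also fell, from 6.603, 14.4 and 14.0 CPM to 1.47, 1.84 and 1.89 CPM (d -2.21), while g9780 rose (d 1.13). g9779, g9781 and g9783 are of near-equal length, at 795, 798 and 804 bases, but so are g9778 and g9786 of the same stretch, at 798 and 789 bases, which did not fall (d -0.07 and 0.59). When numbers up to 2 away were counted as neighbours, 45 of the 59 remained, and g9779 and g9783 were not among them.

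At the edge of the threshold on d stood g34, g8904, g8762, g2665 and g7044 on the inside, from -2.51 to -2.53. g8762 held 36.7, 37.3 and 48.0 CPM in T0 and 6.65, 7.37 and 4.84 CPM in BIN (d -2.52). Just outside were g3821, g6777 and g9608, with a d of -2.4998, -2.48 and -2.47. g3821 held 88.5, 405 and 116 CPM in T0 and 33.2, 35.2 and 36.8 CPM in BIN. g6777 and g9608 were abundant genes, with mean levels of 2308 and 2747 CPM in T0 and 414 and 495 CPM in BIN. Genes on either side of the threshold thus looked alike, and with thresholds of -3 and -2 the rule gave 20 and 124 genes.

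At the edge of the neighbour limit, g9565, g8879 and g3861 were left out because an adjacent gene had a d of -1.02, -1.06 and -1.12. Their own falls were a d of -3.03, -2.60 and -2.59. g3861 held 418, 258 and 347 CPM in T0 and 59.9, 56.5 and 51.5 CPM in BIN, a fall as clear as those of many genes in the group.

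The 23 genes of the 59 outside the naming rule had mean T0 levels of 21.1 to 596 CPM, mean BIN levels of 2.38 to 74.7 CPM, a d of -3.31 to -2.55 and lengths of 513 to 2166 bases. Leaving out each library in turn gave 53 to 59 genes, and 30 of the 59 were chosen in all 6 of these. In each case the left-out library lay on the same side as its group for every gene chosen without it, while 35.8% to 40.8% of all genes lay on that side. The libraries of the other group took part in that choice, so this too is a description. Across all 17 alternative forms of the rule 7 genes were kept in every one: g9473, g372, g4831, g682, g11368, g248 and g9905.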

How the data were processed

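Libraries were made by the authors with an Illumina mRNA kit and sequenced on the HiSeq platform. Per the labels and the study's methods, reads were trimmed with Trimmomatic 0.32, rRNA was removed with SortMeRNA, and reads were mapped with TopHat2 to the strain's own assembly. The authors tested genes with DESeq2. The counting program is not given in the sources used here. The authors deposited raw counts per gene, and also TPM values, which were those counts divided by length and scaled per library. Library totals were 9541028 to 15331728 counts, and no gene had fewer than 10 counts. The number of per-sample columns not used was 0.

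Counts were read in Python 3.11.15 with pandas 2.3.3 and scaled to CPM by the column total. Counts were tested across 10015 genes with edgeR 4.0.16 under R 4.3.3 (TMM factors of 0.920 to 1.06, filterByExpr, robust glmQLFit, glmQLFTest, Benjamini-Hochberg adjustment, no covariates), and the procedure was tested on simulated data. The alternatives used DESeq2 1.42.0, limma 3.58.1 on log2(TPM + 1), other normalizations, filters, pseudocounts, neighbour limits, a length correction (lowess, span 0.3), a replicate block and each library left out in turn. Columns were assigned by the names in the labels, which give 3 replicates per group described as biological.

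The genes named were the 10 with the highest mean T0 level, the 10 deepest falls, the 5 nearest the threshold, the 5 highest in BIN, the 3 most and 3 least variable genes in T0 and in BIN, the 3 longest and 3 shortest, those in the secreted-protein lists, and 6 genes just outside the rule. The genes and lists were chosen with earlier results of these data known. Functions were read from the study's lists. No genome of this strain was used, and 0 of the gene numbers matched the 13840 entries of another strain's gene list, which left positions and sequences out.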

Additional observations from a re-analysis of the deposited data

How the results depend on the processing

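The number of genes chosen, 59, became 42 with a pseudocount of 5, 63 with a pseudocount of 0.1 and 66 with TMM scaling. It became 48 with both neighbours required in the table, 45 with numbers up to 2 away and 46 with a neighbour limit of -0.5. The genes chosen numbered 51 with the length trend removed, 32 on TPM, 20 at a threshold of -3 and 124 at -2. Their share of T0 counts, 3.40%, became 4.17% with a pseudocount of 5, 3.90% with TMM scaling, 1.36% on TPM, 1.80% with numbers up to 2 away as neighbours, 2.94% with both neighbours required in the table, 2.40% with a neighbour limit of -0.5, 0.763% at -3 and 7.17% at -2. Their share of BIN counts, 0.480%, became 0.583% with TMM scaling, 0.148% on TPM, 0.234% with numbers up to 2 away, 0.349% with a limit of -0.5, 0.0733% at -3 and 1.26% at -2. The median length of 909 bases became 816 with a pseudocount of 5, 987 with TMM scaling, 870 on TPM, 877.5 with both neighbours required, 982.5 with a limit of -0.5, 906 at -3, 966 at -2 and 1317 with the length trend removed. Leaving out 1 library gave 53 to 59 genes, shares of 2.20% to 3.95% in T0 and 0.286% to 0.554% in BIN, and median lengths of 859.5 to 1062 bases. The low shares, 2.20% without BIN replicate 3 and 2.21% without T0 replicate 1, come with g8421 outside the rule. Over all genes, 1457 were called lower and 1134 higher, glmTreat called 916 and 737, and limma on log2(TPM + 1) called 730 and 2136. The members called lower were 58 or 59 under every alternative, and the gene lost was g9779, with adjusted p values of 0.0532 to 0.189 in the settings that lost it. It was lost without any 1 of the BIN libraries, and its fall rests largely on T0 replicate 2. Replicate numbers did not pair the libraries: deviations of same-numbered libraries correlated at 0.033, 0.0084 and -0.099. With the replicate block 1441 genes were called lower and 1146 higher, and g9779 was not called (adjusted p 0.0700). Of the 59 genes, 28 kept a d of -2.5 or lower on TPM, 38 with a pseudocount of 5, 46 with the length trend removed and 47 to 55 with 1 library left out. TMM scaling moved the median d of all genes from 0.12 to -0.00 and TPM moved it to 0.40. With 26 reads as the lowest count of a chosen gene in any library, depth limits chiefly the BIN levels of the 6 genes with fewer than 50 reads in some library.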
